A study of Rattus norvegicus with 6 samples.

Results

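The transcripts of 9 enzymes that make serine and move its carbon through folate were followed in primary rat brain microvascular endothelial cells (rBMECs) exposed to homocysteine (Hcy). The members were chosen by gene name, and all 9 were found among the 33566 genes of the count table and had enough counts to be tested. Phgdh, Psat1 and Psph are the 3 enzymes of serine synthesis, Shmt1 and Mthfd1 are the 2 cytosolic folate enzymes, and Shmt2, Mthfd2, Mthfd2l and Mthfd1l are the 4 mitochondrial folate enzymes. The cells line brain capillaries and were isolated from SD rats of 18 to 22 days of age with a commercial kit, purified in screening solution and used after a single passage. Cultures received Hcy for 24 h (3 libraries) or vehicle (Veh), which was sterile water (3 libraries). The treatment label gives 100 μM Hcy, whereas the treatment protocol also names a prepared 50 μM solution. Cells of both groups were grown in complete endothelial medium with growth supplements, and poly(A) RNA was sequenced. The sources call the libraries biological replicates without saying whether they came from separate isolations, so p-values measure the spread between these libraries.

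Serine is made from the glycolytic intermediate 3-phosphoglycerate, which Phgdh oxidizes, Psat1 aminates and Psph dephosphorylates. Serine hydroxymethyltransferases (Shmt2 in mitochondria, Shmt1 in the cytosol) then pass a carbon of serine to tetrahydrofolate and release glycine. In mitochondria Mthfd2 or Mthfd2l oxidizes the folate-bound carbon and Mthfd1l releases it as formate. Mthfd1 carries these steps in the cytosol, where the carbon is used for purines, for thymidylate and, through methionine synthase, for turning Hcy back into methionine. Endothelial cells are known to depend on serine synthesis for growth, and several of these genes are known targets of ATF4, a transcription factor of the amino acid stress response.

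Depth ranged from 14024997 to 16764584 counts per library. On a principal component analysis, the first component held 30.5% of the variance and separated Hcy from Veh, and the second, with 26.2%, set Veh replicate 3 (30.4) apart from Veh replicates 1 and 2 (-15.9 and -19.0). Of 14603 genes tested with edgeR, 341 passed an adjusted p of 0.05. The defining endothelial genes Cdh5, Kdr, Tek, Tie1, Flt1 and Vwf were all abundant, and Cldn5 had 0 counts in every library. The paper, however, reports Claudin-5 protein in rBMECs by Western blot. Why this gene had no counts was not tested, so absence of the transcript cannot be read from them.

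Transcripts of the aminotransferase Psat1 and of 3 of the 4 mitochondrial folate enzymes were higher after Hcy, by a modest margin. Psat1, Shmt2, Mthfd2 and Mthfd1l rose by 1.29 to 1.69-fold, so that 4 of the 9 members passed the test, all upward, against 1.32% of all genes tested that passed upward and 2.34% that passed in either direction. No member passed downward, as 1.01% of genes did. For 5 members the values of both groups were separate, all higher in Hcy, while 20.1% of all genes did not overlap, 10.8% higher and 9.27% lower. On the TPM scale, which rescales each library by its per-length total, Phgdh was separate too, making 6 members, beside 11.8% of all genes separate and higher. In a bulk library, fewer cells of a type and less RNA per cell cannot be told apart. Phgdh, Psph, both cytosolic enzymes and Mthfd2l did not pass. The median log2 fold change of the 9 members was 0.36, beside -0.02 over all genes tested. No member reached the log2 fold change of 1 that the study also required, which 0.486% of genes met together with the adjusted p. At an unadjusted p under 0.05 in edgeR, 5 members were higher, as were 7.44% of all genes.

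**Figure D1:**
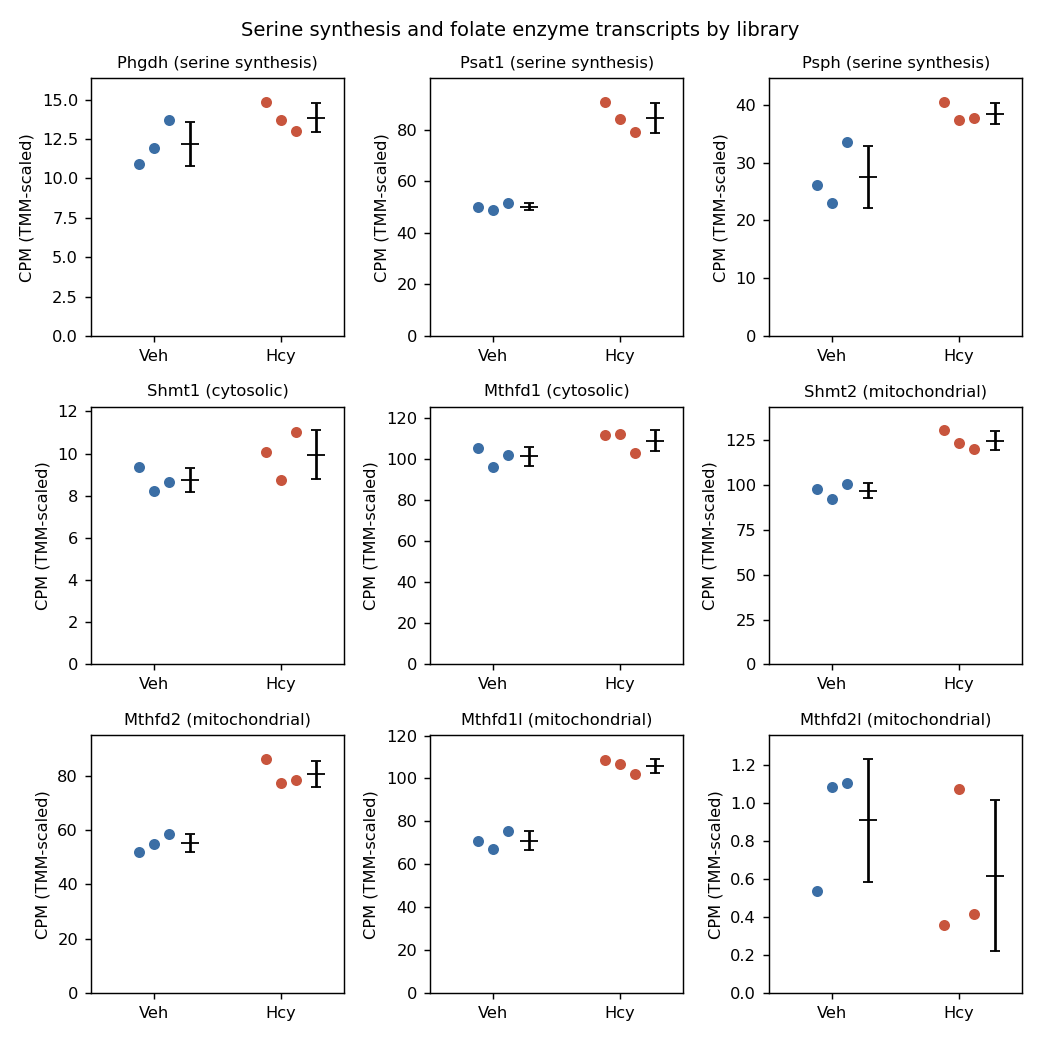
Level of each enzyme transcript (CPM, TMM-scaled, on axes that start at 0) in the 3 Veh and 3 Hcy libraries. Points are libraries in replicate order, and bars give the mean and SD (n = 3). The Hcy points lie above all Veh points for Psat1, Psph, Shmt2, Mthfd2 and Mthfd1l, and the groups overlap for Phgdh, Shmt1, Mthfd1 and Mthfd2l.

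Psat1 (chromosome 1, 233124092 to 233145941, minus strand) encodes phosphoserine aminotransferase (positions are as the count table lists them, with no build named), the middle step of serine synthesis. In CPM, counts scaled to the library total with TMM factors, its level was 90.8, 84.1 and 79.2 CPM in Hcy replicates 1 to 3 and 50.2, 48.8 and 51.6 CPM in Veh replicates 1 to 3. Every Hcy library lay far above every Veh library. The Hcy mean of 84.7 ± 5.84 CPM (SD, n = 3) was 1.69-fold the Veh mean of 50.2 ± 1.38 CPM (SD, n = 3), which is 0.75 on the log2 scale (SE of the log2 fold change 0.08, edgeR adjusted p = 0.0022). By p it was gene 34 of the 14603 tested. With any 1 library omitted, the log2 fold change of Psat1 stayed between 0.70 and 0.80 and its adjusted p reached at most 0.0199 in edgeR's test. It was the only member to pass in each of these fits.

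The other enzymes of serine synthesis did not pass. Psph, on chromosome 12 from 30514112 to 30526557, encodes the phosphatase that releases serine. It was at 40.5, 37.3 and 37.7 CPM in the Hcy libraries and 26.1, 23.0 and 33.5 CPM in the Veh libraries, so the groups did not overlap but Veh replicate 3 lay near the Hcy values. Its log2 fold change of 0.48 (SE 0.13) did not pass (edgeR adjusted p = 0.122). Psph passed with DESeq2 (adjusted p = 0.0243) and in edgeR without Veh replicate 3, where its log2 fold change was 0.65 (adjusted p = 0.00265). Phgdh, on chromosome 2 from 200484246 to 200513564, encodes phosphoglycerate dehydrogenase, which commits carbon to the pathway. Its level was 14.9, 13.7 and 13.0 CPM in Hcy and 10.9, 11.9 and 13.7 CPM in Veh, and the groups overlapped on this scale. The log2 fold change of Phgdh was 0.19, with an interval from -0.10 to 0.48 (edgeR adjusted p = 0.603). At the upper bound of that interval, Phgdh would be 1.39-fold higher in Hcy, below the lower bound of 1.49-fold for Psat1.

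Among the mitochondrial enzymes, Mthfd1l, on chromosome 1 from 40529045 to 40719391, encodes the formate-releasing synthetase. It was at 109, 107 and 102 CPM in the Hcy libraries and 71.0, 66.9 and 75.3 CPM in the Veh libraries, with no overlap. Its log2 fold change was 0.58 (SE 0.08, edgeR adjusted p = 0.00781). Mthfd2, on chromosome 4 from 115004448 to 115015965, encodes the dehydrogenase and cyclohydrolase that is low in most adult tissues and high in dividing cells. Its level was 86.4, 77.5 and 78.7 CPM in Hcy and 52.1, 54.8 and 58.6 CPM in Veh, again without overlap. Mthfd2 averaged 80.8 ± 4.83 CPM after Hcy against 55.2 ± 3.30 CPM under vehicle (SD, n = 3 each), and the log2 fold change was 0.55 (SE 0.08, edgeR adjusted p = 0.0119).

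Shmt2, on chromosome 7 from 70824715 to 70829815, encodes the hydroxymethyltransferase that feeds the mitochondrial branch. It was at 130, 123 and 120 CPM in the Hcy libraries and 97.9, 92.1 and 100.4 CPM in the Veh libraries. The groups were separate, but the step was the smallest of the 4 that passed, its log2 fold change being 0.36 (SE 0.07, edgeR adjusted p = 0.0392). Of these 4 calls, that of Shmt2 was lost most often. Its edgeR adjusted p rose to as much as 0.189, and the call was lost, when any library but Veh replicate 3 was omitted, while its log2 fold change stayed between 0.33 and 0.39. The call of Mthfd2 was lost without Hcy replicate 1, Hcy replicate 3, Veh replicate 1 or Veh replicate 2 (adjusted p from 0.0539 to 0.0683 in edgeR's test), and that of Mthfd1l without Hcy replicate 1 (adjusted p = 0.0528). When single libraries were omitted, between 1 and 5 of the 9 members passed. The count was 1 without Hcy replicate 1, and 2 without Hcy replicate 3, Veh replicate 1 or Veh replicate 2. Genes passing over the whole table fell as well in these fits, to between 80 and 151, and rose to 957 without Veh replicate 3. Without this library, which stood apart, 5 members passed: Psph and the 4 named above.

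Mthfd2l, the paralogue of Mthfd2 on chromosome 14 from 18640277 to 18720357, was barely expressed. It had 5, 16 and 7 counts in the Hcy libraries and 9, 17 and 16 counts in the Veh libraries. These counts were above the floor of 3 in every library, but a single library in each group differed from the others by more than the group means did. Its log2 fold change was -0.55, with an interval from -1.76 to 0.66 (edgeR adjusted p = 0.735). This interval leaves room for a change of either sign within those bounds.

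Neither cytosolic enzyme passed. Mthfd1, on chromosome 6 from 99282850 to 99350340, encodes the trifunctional cytosolic enzyme. It was at 111.6, 112.2 and 103.1 CPM in Hcy and 105.4, 96.4 and 102.1 CPM in Veh, and the groups overlapped. The log2 fold change of Mthfd1 was 0.10, with an interval from -0.06 to 0.27 (edgeR adjusted p = 0.622). Shmt1, on chromosome 10 from 47031050 to 47059216, was at 10.1, 8.73 and 11.0 CPM in Hcy and 9.38, 8.22 and 8.65 CPM in Veh. Its groups overlapped too, and its log2 fold change of 0.18 had an interval from -0.13 to 0.50 (edgeR adjusted p = 0.653). For Mthfd1 the interval leaves room for an increase of at most 1.21-fold, and for Shmt1 of at most 1.42-fold.

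**Figure D2:**
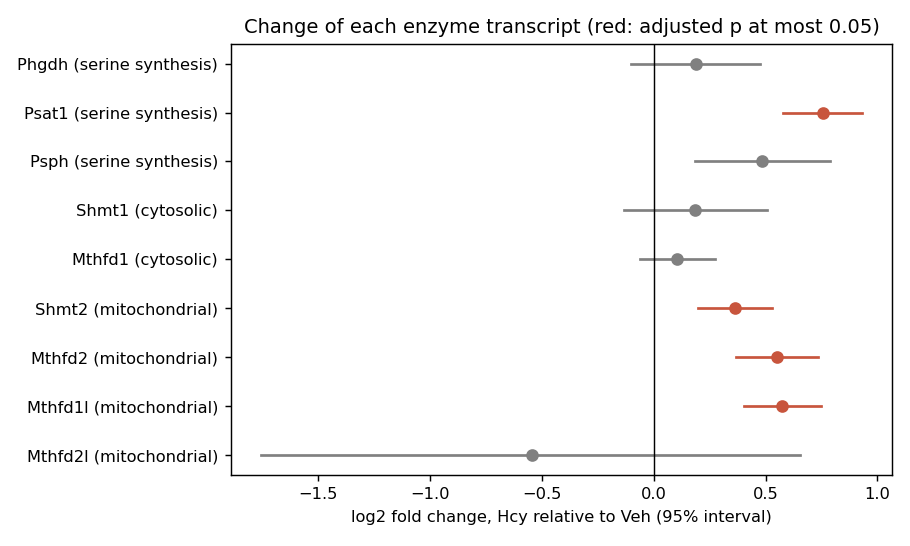
Log2 fold change of each enzyme transcript in Hcy relative to Veh, with its 95% interval from edgeR (3 libraries per group). Psat1 lies highest at 0.75, the mitochondrial enzymes Shmt2, Mthfd2 and Mthfd1l lie between 0.36 and 0.58, the cytosolic enzymes lie at 0.10 and 0.18, and the interval of Mthfd2l runs from -1.76 to 0.66.

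Levels were compared between genes only per length (FPKM, CPM per kilobase of gene). In Veh the order was Shmt2 (46.7 ± 2.05 FPKM, SD, n = 3), Mthfd1 (30.4 ± 1.37 FPKM), Mthfd2 (26.8 ± 1.60 FPKM), Psph (19.3 ± 3.78 FPKM), Mthfd1l (19.0 ± 1.13 FPKM), Psat1 (17.8 ± 0.489 FPKM), Phgdh (6.75 ± 0.782 FPKM), Shmt1 (4.28 ± 0.286 FPKM) and Mthfd2l (0.308 ± 0.110 FPKM). Psph, Mthfd1l and Psat1 could not be ordered beyond their spread, and the libraries of the other neighbours did not overlap. In Hcy, Shmt2 was again highest at 60.0 ± 2.59 FPKM (SD, n = 3), but Mthfd2, at 39.2 ± 2.34 FPKM, now stood above Mthfd1, at 32.7 ± 1.53 FPKM, without overlap of their libraries. Psat1 moved to 30.0 ± 2.07 FPKM and overlapped with both Mthfd1 and Mthfd1l. Phgdh, which catalyses the entry step, was the lowest of the serine synthesis transcripts in both groups.

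To set the compartments against each other, the summed per-length level of the 4 mitochondrial transcripts was divided by that of the 2 cytosolic transcripts in each library, a ratio that does not depend on library scaling. The ratio was 3.49, 3.32 and 3.40 in Hcy replicates 1 to 3 and 2.53, 2.71 and 2.79 in Veh replicates 1 to 3, so the mitochondrial share was higher in every Hcy library. The mean log2 ratio was 1.77 ± 0.0352 (SD, n = 3) in Hcy and 1.42 ± 0.0728 (SD, n = 3) in Veh, a difference of 0.35 that ran from 0.31 to 0.38 when single libraries were omitted. No p is given for this ratio, since the members were chosen with results of these data known.

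The pairs of matching enzymes did not all follow this ratio. Mthfd1l to Mthfd1 was 0.870, 0.849 and 0.886 in the Hcy libraries and 0.602, 0.619 and 0.658 in the Veh libraries. Mthfd2 to Mthfd1 was 1.25, 1.12 and 1.23 in Hcy and 0.799, 0.919 and 0.928 in Veh. Both ratios were higher in every Hcy library. Shmt2 to Shmt1 was 12.8, 13.9 and 10.7 in Hcy and 10.3, 11.1 and 11.4 in Veh. For this pair the groups overlapped, Hcy replicate 3 lying within the Veh range, and the low counts of Shmt1 (125 to 185 per library) limit its precision. Within serine synthesis, Psat1 to Phgdh was 3.90, 3.92 and 3.89 in Hcy against 2.93, 2.61 and 2.40 in Veh, without overlap. Psat1 to Psph was 1.13, 1.14 and 1.06 in Hcy against 0.975, 1.07 and 0.779 in Veh, and these groups overlapped.

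**Figure D3:**
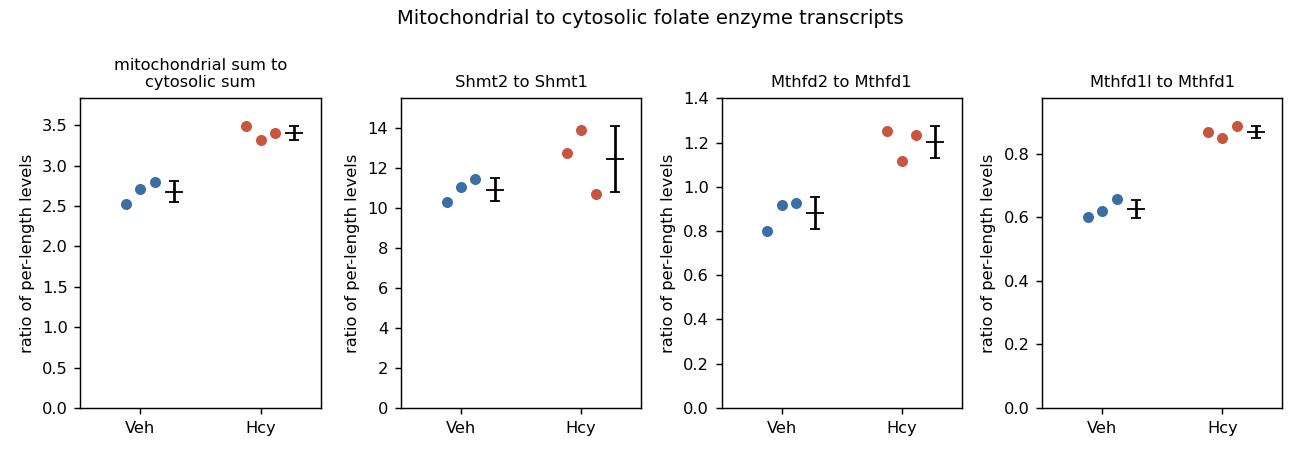
Ratio of per-length levels of mitochondrial to cytosolic folate enzyme transcripts in each library (axes start at 0; points are libraries, bars the mean and SD of the ratios, n = 3). The summed ratio is 3.32 to 3.49 in Hcy and 2.53 to 2.79 in Veh, the ratios to Mthfd1 separate the groups, and the ratio of Shmt2 to Shmt1 does not.

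The 4 members that rose are shown by their promoters, because they moved together and Psat1 and Mthfd2 are known ATF4 targets. RefSeq promoters on build GRCr8, with 250 bases before and 50 after the annotated start, were found for 8 of the 9 members. They were searched on both strands for TGATGNAA, the core of the element bound by C/EBP and ATF factors. It was in 0 of the 8 windows and in 3.98% of all 33469 promoters, and its narrower form TGATGCAA was in 0 of the 8 and in 0.795%. The pentamer CCAAT, the core bound by NF-Y, was searched after that result was seen, is contained in neither form, and occurs on some strand in 37.5% of all promoters. It was in 4 of the 8, those of Psat1, Mthfd2, Phgdh and Shmt1. The windows of the 4 members are given 5′ to 3′ on the strand of the gene, with CCAAT, or ATTGG where it lies on the other strand, in capitals. Psat1 lies at chr1:222645359-222645658 (minus strand), Mthfd2 at chr4:117380301-117380600 (minus strand), Mthfd1l at chr1:42849174-42849473 (plus strand) and Shmt2 at chr7:65249518-65249817 (minus strand).
Psat1: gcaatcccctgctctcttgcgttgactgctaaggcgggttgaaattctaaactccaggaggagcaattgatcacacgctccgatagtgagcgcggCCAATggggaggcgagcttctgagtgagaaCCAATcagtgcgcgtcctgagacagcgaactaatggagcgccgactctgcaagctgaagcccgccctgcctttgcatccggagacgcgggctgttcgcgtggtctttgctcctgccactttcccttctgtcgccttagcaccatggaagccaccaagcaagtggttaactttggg
Mthfd2: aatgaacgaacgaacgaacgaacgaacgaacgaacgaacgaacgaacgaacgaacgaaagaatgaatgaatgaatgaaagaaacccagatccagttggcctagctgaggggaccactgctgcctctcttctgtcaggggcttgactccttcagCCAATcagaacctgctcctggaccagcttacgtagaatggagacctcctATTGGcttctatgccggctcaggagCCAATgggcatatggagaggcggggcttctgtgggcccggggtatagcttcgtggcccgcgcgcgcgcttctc
Mthfd1l: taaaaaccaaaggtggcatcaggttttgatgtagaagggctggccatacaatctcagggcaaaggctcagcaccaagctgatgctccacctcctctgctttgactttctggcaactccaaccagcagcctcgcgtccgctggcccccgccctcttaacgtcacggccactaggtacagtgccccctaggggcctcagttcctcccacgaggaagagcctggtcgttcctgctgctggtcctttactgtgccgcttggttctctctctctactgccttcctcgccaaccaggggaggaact
Shmt2: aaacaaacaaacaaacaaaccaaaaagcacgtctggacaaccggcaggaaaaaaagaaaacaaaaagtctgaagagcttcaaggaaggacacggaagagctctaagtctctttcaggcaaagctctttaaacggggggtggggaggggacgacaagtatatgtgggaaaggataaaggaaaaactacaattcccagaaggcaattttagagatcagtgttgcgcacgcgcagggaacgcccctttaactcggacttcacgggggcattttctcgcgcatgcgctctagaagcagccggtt
The window of Psat1 held 2 matches and that of Mthfd2 held 3, whereas those of Mthfd1l and Shmt2, which rose as well, held none. A match describes the letters in the window and does not show binding. A window without a match does not show that binding is absent, and elements outside the windows were not searched. For a string as rare as TGATGNAA, no match in so few windows is a common outcome.

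Carbon also enters and leaves these enzymes through transporters and other folate enzymes, which were followed in lists of named genes. Over the 8 pathway lists, 57 genes were tested, 4 passed upward and 0 downward, and the median log2 fold change was 0.03. Over all genes tested, 1.32% passed upward and 1.01% downward. Among serine and glycine transporters, 2 of 7 tested genes passed upward and 0 downward, with a list median of 0.34. By library, 4 of the 7 were higher in every Hcy library and 2 were lower in every Hcy library, beside 10.8% and 9.27% of all genes. DESeq2 called 5 of the list, beside 612 of 14603 genes. Slc1a5, the ASCT2 exchanger of serine and glutamine, was at 64.0, 66.2 and 63.0 CPM in Hcy and 43.5, 42.8 and 44.4 CPM in Veh, a log2 fold change of 0.56 (edgeR adjusted p = 0.00483). Slc6a9, the glycine transporter GlyT1, had 42, 42 and 47 counts in Hcy and 18, 24 and 16 in Veh. Its log2 fold change of 1.22 (edgeR adjusted p = 0.046) lost its call when any library but Veh replicate 3 was omitted. Sfxn1, the carrier of serine into mitochondria, was higher in every Hcy library but did not pass (log2 fold change 0.34, edgeR adjusted p = 0.0509). Slc1a4, the ASCT1 exchanger, was separate in the same direction (0.36, edgeR adjusted p = 0.122). Slc38a2, the neutral amino acid transporter SNAT2, was at 459, 448 and 474 CPM in Hcy and 582, 590 and 518 CPM in Veh. It was lower in every Hcy library without passing (log2 fold change -0.29, edgeR adjusted p = 0.0887), as was Sfxn3 (-0.15, edgeR adjusted p = 0.424). The summed level of the list, most of it from Slc38a2, overlapped between groups, at 801 to 821 CPM in Hcy and 799 to 898 CPM in Veh.

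No gene of the folate, glycine cleavage, purine, other serine and methionine cycle lists passed in edgeR. At an unadjusted p under 0.05 each of these lists had 1 gene, except the methionine cycle list with 0, and DESeq2 called 1 gene in the list of folate uptake, reduction and storage and 0 in the others. The 7 tested genes for folate uptake, reduction and storage had a median log2 fold change of -0.20. Among 6 other enzymes that use folate, Mthfsd had the smallest p, at a log2 fold change of -0.61 (adjusted p = 0.262). Of 3 tested genes of the glycine cleavage system, Amt had the smallest p, at a log2 difference of 0.31 (adjusted p = 0.285). Of 8 genes of purine synthesis, a pathway that draws on formyl folate, none passed, and the smallest p was that of Pfas, with 0.33 (adjusted p = 0.0992). Of 7 other enzymes and proteins that use serine, Sptlc2 had the smallest p, with -0.25 (adjusted p = 0.24), and of 5 methionine cycle genes it was Mat2b, with -0.13 (adjusted p = 0.52), all from edgeR's test. DESeq2 called 11 genes of the pathway lists at the same adjusted p, beside 612 of 14603 genes.

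The list of ATF4 and amino acid stress genes had 2 of 14 tested genes passing upward, beside 1.32% of all genes tested. Its median log2 fold change was 0.11. Chac1, which degrades glutathione, was at 42.4, 41.6 and 39.6 CPM in Hcy and 22.8, 17.5 and 21.8 CPM in Veh, and its log2 fold change was 0.99 (edgeR adjusted p = 0.00353). Slc7a5, the large neutral amino acid transporter LAT1, had a log2 fold change of 0.40 (adjusted p = 0.0297). Atf4 itself was at 487, 440 and 466 CPM in Hcy and 396, 393 and 469 CPM in Veh, and did not pass (log2 fold change 0.15, adjusted p = 0.526). By library, 6 of the 14 were higher in every Hcy library and 0 were lower in every Hcy library, beside 10.8% and 9.27% of all genes. In addition to Chac1 and Slc7a5 these were Trib3 (log2 fold change 0.65, edgeR adjusted p = 0.0507), Pck2 (0.44, adjusted p = 0.0664), Asns (0.37, adjusted p = 0.0863) and the barely expressed Nupr1 (1.51, adjusted p = 0.392), none of which passed. The groups overlapped for the remaining genes, among them Ddit3, Sesn2 and Slc7a11, at log2 fold changes of -0.15, 0.05 and -0.18. DESeq2 called 5 genes of this list, beside 612 of 14603 genes. The call of Slc7a5 was likewise lost when any library but Veh replicate 3 was omitted.

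**Figure D4:**
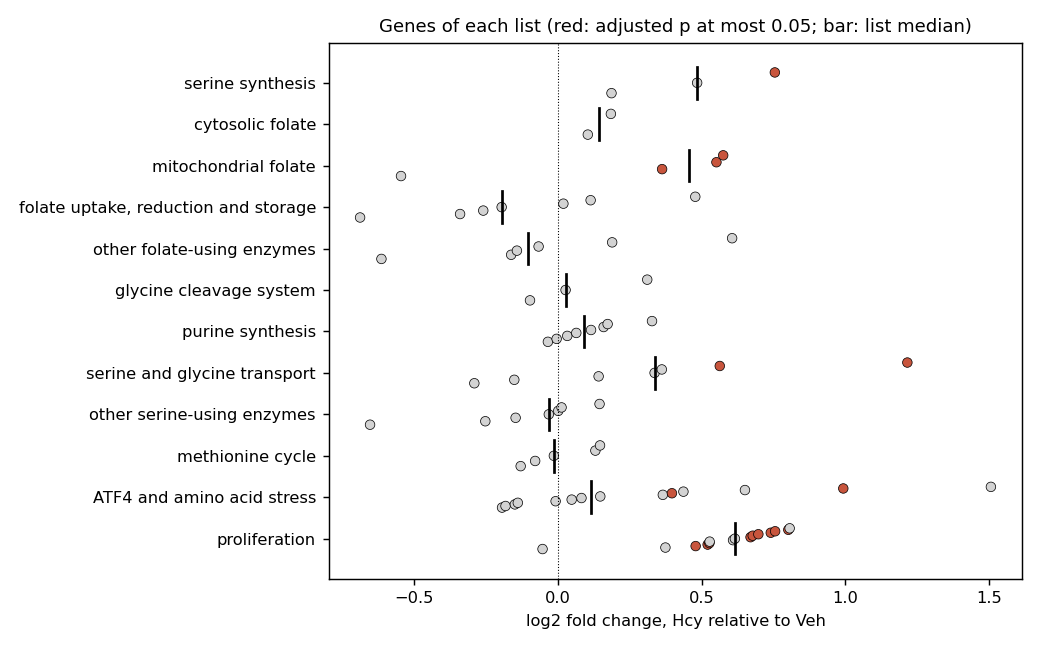
Log2 fold change in Hcy relative to Veh of each tested gene of the serine, folate, pathway and proliferation lists. Points are genes, red where the adjusted p from edgeR was at most 0.05, and black bars are list medians. Passing genes appear in the serine synthesis, mitochondrial folate, transport, ATF4 and proliferation lists, and in none of the folate uptake, other folate, glycine cleavage, purine, other serine or methionine cycle lists.

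Of 15 listed proliferation genes, 9 passed upward and 0 downward, beside 1.32% and 1.01% of all genes tested. The other 6 did not pass. By library, 14 of the 15 genes were separate and higher in Hcy and 0 were lower, beside 10.8% and 9.27% of all genes. The groups overlapped for Ccnb1 alone, with a log2 fold change of -0.05 (edgeR adjusted p = 0.947). The list had a median log2 fold change of 0.62. The replication licensing genes Mcm4 and Mcm5 had 0.70 and 0.80 (adjusted p = 0.00242 and 0.00487 from edgeR's test), and Mki67 had 0.62 (adjusted p = 0.063). When any library but Veh replicate 3 was omitted, 3 or 4 of the list passed. The summed level of the list was 940 to 1047 CPM in Hcy and 622 to 738 CPM in Veh. The part of this difference in the rise of Psat1, Shmt2, Mthfd2 and Mthfd1l was not tested. These are transcript levels and do not measure cell growth. In an absorbance assay after a longer exposure, the paper reports that Hcy suppressed the proliferation of rBMECs.

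The markers of other cell types were also set beside the result. Astrocytes express Phgdh strongly, and the astrocyte genes Aqp4 and Slc1a2 had 0 counts in every library, while Gfap had at most 4. The summed level of the 6 astrocyte genes, almost all of it from Gja1, was 113 to 117 CPM in Hcy and 126 to 151 CPM in Veh, and 0 of the 4 tested passed in edgeR or DESeq2, with 1 lower at an unadjusted p under 0.05. Of 10 endothelial genes tested, 0 passed in edgeR, beside 2.34% of all genes tested. In edgeR 4 had an unadjusted p under 0.05, 3 higher in Hcy, beside 7.44% of all genes, and 1 lower. DESeq2 called 2 of the 10, beside 612 of 14603 genes. Endothelial sums were 9451 to 9877 CPM in Hcy and 7821 to 9037 CPM in Veh. Of 4 smooth muscle genes, 3 passed downward, beside 1.01% of all genes tested. Smooth muscle sums were 673 to 702 CPM in Hcy and 1120 to 1348 CPM in Veh. Pericyte sums were 4.48 to 7.12 CPM in Hcy and 3.38 to 4.29 CPM in Veh, with 0 of 6 passing in either tool and 1 higher at an unadjusted p under 0.05. Fibroblast sums were 35.7 to 57.8 CPM in Hcy and 57.5 to 83.9 CPM in Veh, with 0 of 3 tested passing in either tool and 1 lower at that p. Microglial sums were at most 2.01 CPM, with Cx3cr1 and P2ry12 at 0, neuronal sums at most 9.77 CPM, with Rbfox3, Snap25 and Map2 at 0, and oligodendrocyte lineage sums at most 12.4 CPM, with Mag at 0. The part of these differences in the members' changes was not tested.

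The genes whose log2 CPM followed Psat1 most closely over the 6 libraries, among 8250 genes with a mean of at least 10 CPM, were Apln, Fxyd6 and Dnmt1, with Pearson's r of 0.997, 0.996 and 0.995. The 6 libraries form the 2 groups compared, so these values describe a shared group difference as much as likeness between libraries. The log2 fold changes of Apln, Fxyd6 and Dnmt1 were 0.17, 1.14 and 0.44, against 0.75 for Psat1.

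Entries that share the protein match of a member could take some of its reads. LOC680432, which matches Mthfd1, had 35 to 57 counts per library, AABR07011698.1, which matches Psat1, had 1 to 14, and AABR07049405.1, which matches Mthfd2, had at most 1. Against the 745 to 1327 counts of Psat1 and the 847 to 1318 of Mthfd2, these were few. On the listed positions, no other member overlapped another gene than Mthfd1l, which holds a small nuclear RNA gene with 0 counts.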

How the data were processed

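The count table that the authors deposited holds whole-number read counts of 33566 genes, with gene lengths and positions. A second deposited table, of the authors' own DESeq2 comparison (normalized values, fold changes and p-values), was not used here. Per the labels, HISAT2 2.2.1 and featureCounts 2.0.6 are among the processing tools, with no role stated, and the strand setting is not given in the sources used here. The paper names mRatBN7.2 as the genome, but the listed positions reach 282724300 on chromosome 1, beyond the end of that chromosome in mRatBN7.2, so positions are printed as listed and not as mRatBN7.2. The RefSeq promoters are from GRCr8.

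Genes whose counts added up to 10 or more over all libraries were tested with the quasi-likelihood test of edgeR 4.0.16 in R 4.3.3, with TMM factors (0.977 to 1.02), condition as the only term and Benjamini-Hochberg adjustment over all genes tested. CPM is TMM-scaled. FPKM is the same CPM per kilobase of the deposited length. A standard error is the log2 fold change divided by the square root of the F statistic, and intervals are 95% intervals. Genes passed at an adjusted p of at most 0.05. The study also required a log2 change of 1 or more in either direction, and both counts are given. Libraries held 14024997 to 16764584 counts, at which 3 counts correspond to 0.179 to 0.214 CPM. Intervals cover the spread between libraries.

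The members and lists were chosen with earlier results of these data known. Named genes were the 9 members, the pathway list genes that passed or, where none did, the gene with the smallest p, Atf4, Mki67, Pecam1 (not analysed here), and the 3 genes most like the member with the smallest p. The gene that this rule names for folate uptake, reduction and storage is not reported here. Other genes were named after their values were seen. Alternatives were DESeq2 1.42.0, scaling by DESeq2's size factors or by library totals, other filters, a prior count of 2, the replicate number as a block, TPM, and leaving out each library. The test was run on simulated data.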

Additional observations from a re-analysis of the deposited data

How the results depend on the processing

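Each of the 9 members kept its direction under all alternatives run. The ratio of mitochondrial to cytosolic transcripts kept its direction when libraries were left out singly. The other alternatives could not change this ratio, which is formed within each library. Psat1 passed in all 13 alternatives that kept the adjusted p as the only threshold. With a log2 change of 1 or more also required, 0 members, 1 pathway list gene, 1 gene of the proliferation and cell type lists and 71 genes in all passed, against 4, 4, 12 and 341. With DESeq2, 11 pathway list genes and 612 genes in all passed. Without a filter on low counts, 8 pathway list genes passed. When libraries were left out singly, the number passing ran from 1 to 5 for members, 2 to 12 for pathway lists, 5 to 18 for the proliferation and cell type lists and 80 to 957 for all genes. The highest of each came without Veh replicate 3. The causes were not tested. With the replicate number as a block, 3 members and 298 genes in all passed, and Shmt2 (adjusted p = 0.0758), Slc6a9 (0.0845), Top2a, Pcna and Mcm6 lost their calls in edgeR. Same-numbered libraries had deviations correlating by 0.0237, 0.166 and 0.0581, with a mean of 0.0828 against -0.0415 for different numbers. Hcy replicates 2 and 3 correlated best with the Veh library of the same number, and Hcy replicate 1 with Veh replicate 3. These correlations were weak, and the numbers were not taken to pair the samples in the main fit. TPM in place of FPKM moved no member's difference by more than the spread between libraries, but in TPM, a comparison added after seeing the data, the groups of Phgdh no longer overlapped and 6 members in place of 5 were separate. Among the members, Mthfd2l had the fewest counts, at 5 to 17 per library, which limits its precision.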
